A study of Mus musculus with 6 samples.

Results

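Transcripts of 40 genes that start and carry DNA replication were followed in germ cells of the fetal mouse testis. The members were genes of the origin recognition complex and its licensing partners, of GINS and other activators of the replicative helicase, of the replicative polymerases and primase, of the clamp loaders and replication protein A (RPA), and of the enzymes that finish the lagging strand. They were listed by symbol, with no threshold on their values, but with earlier results of these data known. All 40 were present among the 27998 genes of the count table. The cells came from testes at embryonic day 14.5 and had been gated for tdTomato, a red fluorescent protein. The 3 control samples carried the genotype label wildtype and the 3 others the label Rb1 cKO (conditional deletion of the retinoblastoma gene), and all 6 shared the strain label Mixed C57/B6 and 129. Neither the Cre driver, the deleted exons nor the number of animals behind a sample is given in the sources used here. The p-values therefore rest on the spread of these samples alone, and that spread may be technical. Libraries were made with 10x Genomics v2 chemistry, in which each captured transcript is read from its 3′ end and counted once by a unique molecular identifier (UMI).

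Replication is prepared in G1, when the origin recognition complex, Cdc6 and Cdt1 load the MCM helicase onto DNA, and geminin (Gmnn) blocks a further round of loading. In S phase the kinase Cdc7 with its activator Dbf4, and then Cdc45 and GINS, turn the loaded helicase into a moving fork, on which primase, DNA polymerases alpha, delta and epsilon, RPA and the clamp loader work. Many of these genes are textbook targets of E2F transcription factors, which the retinoblastoma protein restrains, and male germ cells of this age are leaving the mitotic cycle. The comparison asks how transcripts of this machinery stand in germ cells with and without Rb1.

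The 6 samples held 430 to 1354 kept cells and 7598511 to 17323152 UMIs. The mean of the samples' median UMIs per cell was 14748 ± 2537 for controls and 14746 ± 1681 for cKO (SD over 3 samples; exact two-sided permutation p = 1, smallest possible 0.1). Levels are given as CPM, the count of a gene per 1000000 UMIs of the summed cells of a sample. They are scaled by TMM factors, which bring the libraries of a comparison to a common level. Rb1 itself stood at 7.13 to 10.3 CPM in controls and at 3.35 to 3.73 CPM in cKO samples, on 27 to 119 UMIs, and 3′ tags that lie outside a deleted part check nothing about it. The 6 germ cell markers, among them Dazl, Ddx4 and Pou5f1, summed to 8222 to 9890 CPM. The lists for other cells reached 5.67 to 25.8 CPM for Sertoli cells (highest in control 3), 0.659 to 1.42 CPM for Leydig cells with Hsd3b1 and Insl3 at 0, 2.93 to 9.04 CPM for stroma, 0 to 3.48 CPM for macrophages and 5.71 to 27.2 CPM for erythroid cells. The endothelial list reached 43.4 to 71.0 CPM, of which Pecam1 gave 30.9 to 51.8 CPM. Among the barcodes, 9 sequences occurred in more than 1 library.

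Promoters of 6 members are shown here because these genes are commonly grouped as E2F targets and because the members with and without an E2F word both include genes that stood higher in the cKO samples. RefSeq's promoter table (GRCm38.p6, from 250 bases before to 50 bases after the transcription start) held 32 of the 40 members. Dscc1, Gins1, Gins2, Gins4, Gmnn, Pole, Prim2 and Rfc2 had no entry. The E2F words searched were TTTCCCGC, TTTCGCGC, TTTGCCGC and TTTGGCGC on both strands, and capitals mark each match. The sequences run 5′ to 3′ on the strand of the gene. Cdc6, Pold3, Orc1 and Rfc3 hold a word, and Prim1 and Cdc45 hold none. The windows are chr11:98907901-98908200 (plus strand) for Cdc6, chr7:100121453-100121752 (minus) for Pold3, chr4:108579204-108579503 (plus) for Orc1, chr5:151651159-151651458 (minus) for Rfc3, chr10:128014965-128015264 (plus) for Prim1 and chr16:18811923-18812222 (minus) for Cdc45.
Cdc6: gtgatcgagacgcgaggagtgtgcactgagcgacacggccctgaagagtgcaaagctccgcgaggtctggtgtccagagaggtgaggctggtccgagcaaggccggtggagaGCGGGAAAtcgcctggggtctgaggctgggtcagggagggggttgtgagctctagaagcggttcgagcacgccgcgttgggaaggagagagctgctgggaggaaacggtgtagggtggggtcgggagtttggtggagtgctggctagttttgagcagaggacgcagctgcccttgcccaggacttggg
Pold3: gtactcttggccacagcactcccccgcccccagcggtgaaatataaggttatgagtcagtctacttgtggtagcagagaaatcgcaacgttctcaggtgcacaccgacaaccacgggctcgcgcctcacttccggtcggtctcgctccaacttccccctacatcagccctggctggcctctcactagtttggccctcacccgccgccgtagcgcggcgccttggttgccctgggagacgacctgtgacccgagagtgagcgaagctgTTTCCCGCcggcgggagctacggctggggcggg
Orc1: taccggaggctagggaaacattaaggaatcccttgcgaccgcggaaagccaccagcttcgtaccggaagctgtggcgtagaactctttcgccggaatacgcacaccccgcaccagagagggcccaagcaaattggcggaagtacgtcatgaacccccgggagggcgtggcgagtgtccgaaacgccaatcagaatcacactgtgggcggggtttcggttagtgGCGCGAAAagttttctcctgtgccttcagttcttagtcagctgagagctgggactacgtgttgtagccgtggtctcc
Rfc3: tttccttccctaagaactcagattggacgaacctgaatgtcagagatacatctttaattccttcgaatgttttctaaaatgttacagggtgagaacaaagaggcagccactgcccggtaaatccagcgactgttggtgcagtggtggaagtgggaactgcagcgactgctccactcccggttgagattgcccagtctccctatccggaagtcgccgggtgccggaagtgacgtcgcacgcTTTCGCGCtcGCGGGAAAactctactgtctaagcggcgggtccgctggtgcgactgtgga
Prim1: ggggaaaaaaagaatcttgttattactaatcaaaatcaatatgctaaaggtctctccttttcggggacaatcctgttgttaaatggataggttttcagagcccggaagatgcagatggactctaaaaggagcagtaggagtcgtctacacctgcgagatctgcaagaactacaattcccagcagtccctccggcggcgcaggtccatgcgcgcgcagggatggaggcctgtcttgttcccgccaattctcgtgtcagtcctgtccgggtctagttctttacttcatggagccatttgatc
Cdc45: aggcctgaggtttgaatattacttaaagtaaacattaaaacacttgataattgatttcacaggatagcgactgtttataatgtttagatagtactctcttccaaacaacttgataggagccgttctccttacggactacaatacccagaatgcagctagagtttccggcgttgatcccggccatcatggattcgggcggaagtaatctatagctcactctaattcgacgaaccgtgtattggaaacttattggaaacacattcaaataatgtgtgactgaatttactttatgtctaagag

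An E2F word was found in the windows of 12 of the 32 members (37.5%), against 2.605% of the 27025 genes with a window of this length. The 12 were Orc1, Orc3, Cdc6 and Cdt1 of the licensing genes, Gins3 of the helicase activators, Pola1, Pold1, Pold3, Pole2 and Pole4 of the polymerases, and Rfc3 and Lig1. Rfc3 alone among the members held 2 words. The CCAAT box (CCAAT, both strands) was in 46.9% of the members' windows and in 41.1% of all windows, and the CHR word of mitotic promoters (TTTGAA, both strands) in 18.8% and 20.2%. A match is a run of letters and not a shown binding site.

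Across all cells, most of the replication genes stood slightly higher in the cKO samples, and none passed the test. The log2 fold change was positive for 32 of the 40 members, their median was 0.12 and their range -0.12 to 0.48, whereas 50.1% of the 11540 genes tested were positive, with a median of 0.0001. All 40 members passed the filter on low counts. In 13 members (32.5%) every cKO sample was above every control, against 4.71% of the genes tested, and in 0 members was every cKO sample below every control (4.23% of genes). The quasi-likelihood test of edgeR called 0 members and 0% of all genes at a Benjamini-Hochberg adjusted p under 0.05. Rb1 itself, whose groups lay apart, was thus not called either, so a missing call does not show that a gene was unchanged. At an unadjusted p under 0.05 it had 9 members higher, against 1.78% of genes, and 0 lower (1.73%), and DESeq2 called 3 genes, none of them a member. The smallest adjusted p of a member was 0.914, for Prim2, and that of each other member was at least 0.994.

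**Figure D1:**
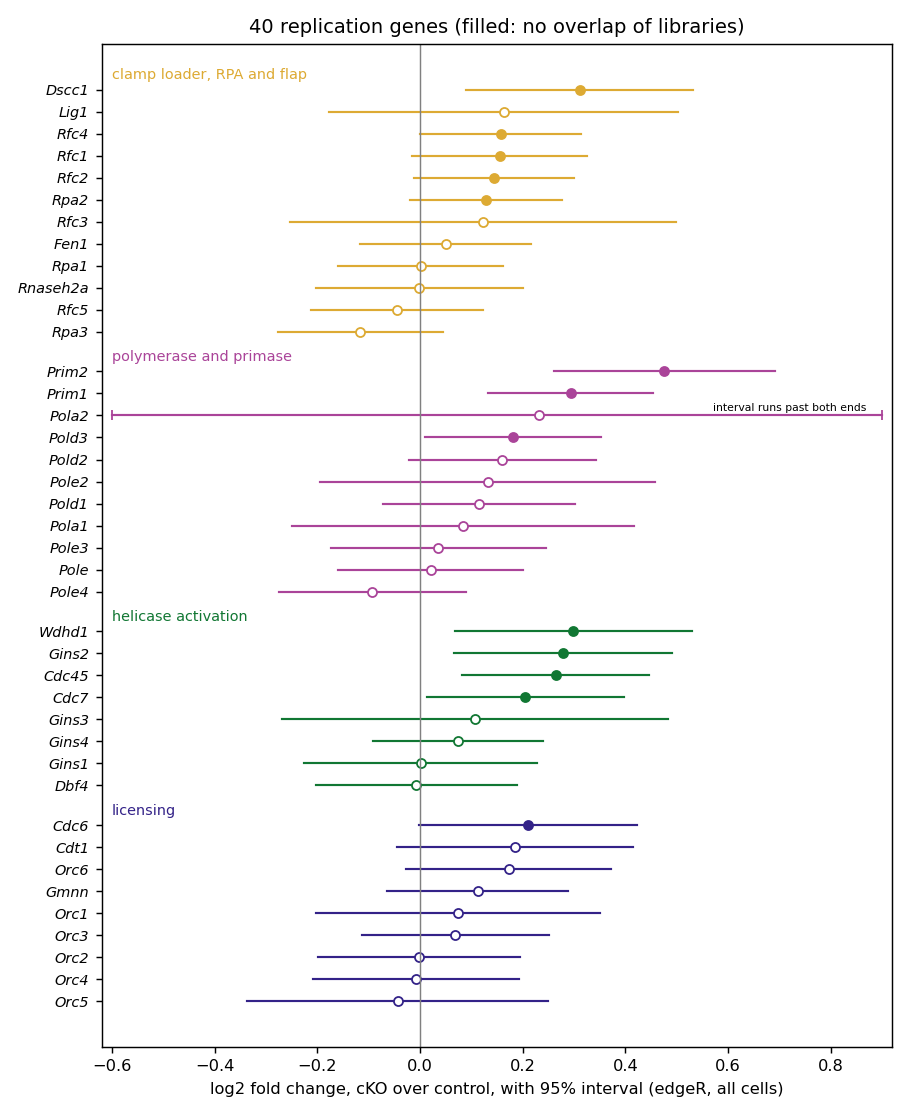
Log2 fold change of cKO over control for the 40 members in all cells, grouped by role. Lines are the 95% interval derived from the edgeR test. Filled points are the 13 members whose 3 cKO samples all lie above the 3 controls. Most points lie right of 0, with Prim2 at 0.48 and Rpa3 at -0.12 as the ends, and the interval of Pola2 runs past both ends of the axis.

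Among the genes of origin recognition and licensing, 6 of 9 were positive, with a median log2 fold change of 0.07. Cdc6, which helps load the MCM helicase, was the one licensing gene whose groups did not overlap. It stood at 35.6, 34.2 and 38.7 CPM in controls 1 to 3 and at 38.7, 41.7 and 45.0 CPM in cKO 1 to 3. Control 3 and cKO 1 lay next to each other, so the gap between the groups was small. The log2 fold change of Cdc6 was 0.21 ± 0.09 (SE). Gmnn, the inhibitor of Cdt1, stood at 292, 306 and 342 CPM in controls and at 321, 353 and 341 CPM in cKO samples, and its groups overlapped (0.11 ± 0.08). Cdt1 had a log2 fold change of 0.18 ± 0.10 and Orc6 one of 0.17 ± 0.09, both with overlapping groups. Reads of Cdt1 are uncertain, because the annotation places another counted gene, Gm20388, over it on the same strand. The core subunits Orc2, Orc3, Orc4 and Orc5 had log2 fold changes between -0.04 and 0.07. The 95% interval of the fold for Orc2 was 0.872 to 1.14 and that for Orc4 was 0.866 to 1.14.

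The helicase activators had the largest median among the 4 roles, at 0.16, with 7 of 8 members positive and 4 whose groups did not overlap. Cdc45, which joins MCM and GINS in the active helicase, stood at 80.8, 70.1 and 71.6 CPM in controls and at 90.1, 90.4 and 86.9 CPM in cKO samples. The 3 cKO samples lay close together and above control 1, the highest control. The log2 fold change was 0.26 ± 0.08 (edgeR unadjusted p = 0.00908). Gins2, a GINS subunit, stood at 29.0, 32.8 and 28.3 CPM in controls and at 35.0, 38.0 and 35.8 CPM in cKO samples (0.28 ± 0.09). Wdhd1, the And-1 protein that ties the helicase to polymerase alpha, stood at 46.9, 51.0 and 43.1 CPM in controls and at 52.4, 56.3 and 64.1 CPM in cKO samples (0.30 ± 0.10). Cdc7, the kinase that triggers origin firing, stood at 44.3, 46.6 and 46.7 CPM in controls and at 48.7, 53.6 and 56.2 CPM in cKO samples (0.21 ± 0.09). In all 4 genes the lowest cKO sample was above the highest control. The other GINS genes did not share this: Gins1 had 0.00 ± 0.10, Gins4 0.07 ± 0.07 and Gins3, at 61 to 129 UMIs per sample, 0.11 ± 0.17. Dbf4, the partner of Cdc7, had -0.01 ± 0.09, with a 95% interval of the fold from 0.868 to 1.14.

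Among polymerases and primase, 10 of 11 members were positive, with a median of 0.13, and both primase genes stood higher in every cKO sample. Prim2, the large primase subunit (chromosome 1, 33453810 to 33669795, GRCm38), stood at 25.3, 27.1 and 24.5 CPM in controls and at 36.9, 32.8 and 37.2 CPM in cKO samples. The lowest cKO sample, cKO 2, was well above control 2, the highest control. Its log2 fold change of 0.48 ± 0.10, a fold of 1.39 with a 95% interval of 1.2 to 1.61, was the largest of the 40 (edgeR unadjusted p = 0.000633, adjusted p = 0.914). Prim1, the catalytic subunit (chromosome 10, 128015168 to 128030037), stood at 108, 107 and 110 CPM in controls and at 125, 138 and 135 CPM in cKO samples. The controls of Prim1 lay close together, and all cKO samples were above them. Its log2 fold change was 0.29 ± 0.07 (edgeR unadjusted p = 0.00239). Pold3, a subunit of polymerase delta, stood at 81.6, 74.5 and 84.0 CPM in controls and at 91.1, 89.8 and 91.5 CPM in cKO samples (0.18 ± 0.08). The catalytic polymerase genes differed less: Pola1 had 0.08 ± 0.15, Pold1 0.12 ± 0.08 and Pole 0.02 ± 0.08, and all 3 had overlapping groups. Pole4, a small subunit of polymerase epsilon, was the only negative one, at 90.6, 89.7 and 103 CPM in controls and at 87.4, 87.8 and 90.9 CPM in cKO samples (-0.09 ± 0.08), with overlapping groups. Pole3, its partner, stood at 137, 132 and 163 CPM in controls and at 138, 152 and 154 CPM in cKO samples (0.04 ± 0.09), and without control 2 the value was -0.02.

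**Figure D2:**
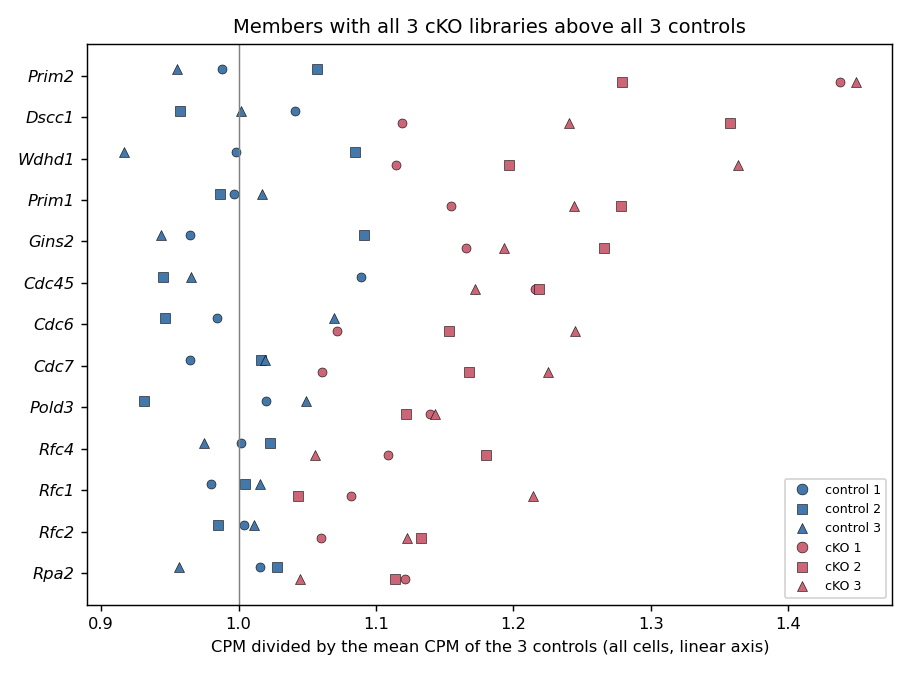
CPM of each sample divided by the mean of the 3 controls, on a linear axis, for the 13 members whose 3 cKO samples all lay above the 3 controls; circles, squares and triangles are replicates 1, 2 and 3. Prim2 has the widest gap between the groups, and in Cdc6 the highest control and the lowest cKO sample nearly meet.

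Of the clamp loaders, RPA subunits and lagging-strand enzymes, 9 of 12 were positive, with a median of 0.13, and 5 had groups that did not overlap. Rfc1, Rfc2 and Rfc4 belong to the RFC complexes that open and close the PCNA clamp. Rfc4 stood at 189, 193 and 184 CPM in controls and at 210, 223 and 200 CPM in cKO samples (0.16 ± 0.07). Rfc1 stood at 176, 181 and 183 CPM in controls and at 195, 188 and 219 CPM in cKO samples (0.16 ± 0.08). Rfc2 stood at 106, 104 and 106 CPM in controls and at 112, 119 and 118 CPM in cKO samples (0.14 ± 0.07), and with equal numbers of cells per sample its value was 0.03. Rfc5 went the other way, with overlapping groups (-0.05 ± 0.07). Dscc1, of the alternative loader used in sister chromatid cohesion, stood at 32.6, 30.0 and 31.3 CPM in controls and at 35.0, 42.5 and 38.8 CPM in cKO samples. Its lowest cKO sample, cKO 1, was just above control 1, and its log2 fold change was 0.31 ± 0.10. The RPA subunits, which act as a trimer on single-stranded DNA, did not share a direction. Rpa2 stood at 424, 429 and 400 CPM in controls and at 468, 466 and 437 CPM in cKO samples (0.13 ± 0.07), with every cKO sample higher. Rpa3 stood at 212, 234 and 220 CPM in controls and at 195, 214 and 205 CPM in cKO samples (-0.12 ± 0.07), with cKO 2 above control 1. Rpa1 had 0.00 ± 0.07, and the 95% interval of its fold was 0.896 to 1.12. The flap nuclease gene Fen1 had 0.05 ± 0.07 and the RNase H2 gene Rnaseh2a 0.00 ± 0.09.

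Summed over the 40 members, the level stood at 3916, 3957 and 4184 CPM in controls and at 4201, 4285 and 4490 CPM in cKO samples. The groups did not overlap, but control 3 and cKO 1 lay close to each other. The helicase activators summed to 433 ± 3.49 CPM in controls and to 477 ± 5.74 CPM in cKO samples (mean ± SD of 3 samples), without overlap. The group of clamp loaders, RPA and flap processing summed to 2033 ± 44.1 and 2158 ± 69.7 CPM, also without overlap. Sums of licensing genes and of polymerases with primase overlapped between the groups. A sum over cells does not tell more cells with these transcripts from more transcripts per cell. With each cell thinned to 10000 UMIs, the median number of member UMIs per cell was 38, 39 and 40 in controls and 43, 43 and 44 in cKO samples. The 10% of cells with the fewest reached up to 26, 29 and 30 UMIs in controls and 32, 31 and 31 UMIs in cKO samples. The 10% with the most began at 53, 52 and 52 UMIs in controls and at 55, 55.7 and 57 UMIs in cKO samples. Low, middle and high cells of the cKO samples all stood slightly higher in this pool of all cells. Within the authors' clusters, described below, the medians did not overlap in clusters 0, 1 and 3 but did in clusters 2 and 4. In cluster 2 they were 44, 45 and 42 in controls and 44, 45 and 46 in cKO samples. Cells shallower than 10000 UMIs were left out, 43, 13 and 218 of them in controls and 25, 91 and 66 in cKO samples. Without thinning the medians were 52, 67 and 51 UMIs in controls and 70, 56 and 62 UMIs in cKO samples, and overlapped. The part of free RNA in these counts was not tested.

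Of 30 other replication genes, a list with the MCM subunits, Pcna and fork factors, 25 were positive, with a median of 0.07. In 5 (16.7%) every cKO sample was above every control, against 4.71% of the genes tested. These 5 were Ticrr, Tipin, Clspn, Ssrp1 and Dtl. Tipin, of the fork protection complex, stood at 200, 177 and 173 CPM in controls and at 210, 238 and 217 CPM in cKO samples (0.28 ± 0.08). Each cKO sample of Tipin was above the highest control. The checkpoint adaptor Clspn had 0.20 ± 0.08. Of 20 mitotic genes, 11 were positive, with a median of 0.03. Among them 1 (Cenpf) had all cKO samples higher (4.71% of genes) and 1 (Bub1b) all lower (4.23%). The summed level of the mitotic list overlapped between the groups, at 3931 ± 39.6 CPM in controls and at 3976 ± 125 CPM in cKO samples. No gene of either list was called by edgeR. Within the authors' clusters, described below, the other replication genes with every cKO sample higher were 1 of 30 in cluster 0 (4.88% of genes). They were 6 of 29 in cluster 1 (4.65%), 1 of 29 in cluster 2 (4.47%) and 3 of 27 in cluster 3 (5.07%).

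The authors divided the cells into 5 numbered clusters, and the members' levels differed between them in a way shared by all 6 samples. These levels are a description without a test, since the clusters were made from the same cells and genes. Of the 40 members, 31 had their lowest level of clusters 0 to 3 in cluster 1. In each of the 6 samples 30 were lower in cluster 1 than in cluster 0. Such counts were not made over all genes, so whether they differ from genes in general was not tested. Cluster 1 was also where the mitotic list was highest, at 5507 CPM against 2905 CPM in cluster 0 and 3551 CPM in cluster 2. Dscc1, for one, had 47.0 CPM in cluster 0 and 19.5 CPM in cluster 1, and Cdc45 104 and 56.6 CPM. Dbf4 and Orc4 went the other way in all 6 samples, with Dbf4 at 75.2 CPM in cluster 0 and 104 CPM in cluster 1.

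Among clusters 0 to 3, 4 members (Cdc6, Cdt1, Orc1 and Gins2) were lowest in cluster 2, and 18 were highest there. For the counts of this paragraph too, the share over all genes was not computed. The 18 were spread over the roles, with the origin subunits Orc2 and Orc3, both primase genes, Pold1, Pold2 and Pold3 of polymerase delta and the clamp loader genes Rfc2, Rfc4 and Rfc5 among them. Cdc6 had 50.8 CPM in cluster 0 and 12.04 CPM in cluster 2, Gins2 47.9 and 10.2 CPM, and Cdt1 92.3 and 50.8 CPM. Orc1 had 26.3 CPM in cluster 1 and 10.1 CPM in cluster 2. Each of these 4 genes was lower in cluster 2 than in cluster 0 in all 6 samples. Prim1 showed the reverse, with 167 CPM in cluster 2 and 87.0 CPM in cluster 1, and was higher in cluster 2 than in cluster 0 in all 6 samples. Pold3 had 113 CPM in cluster 2 and 68.9 CPM in cluster 1. A further 16 members were highest in cluster 0 of these 4 clusters, and the median ratio of the highest to the lowest of the 4 was 1.44. With the small cluster 4 included, which held 10 to 27 cells per sample, 25 of the 40 members were highest in cluster 4, among them Prim2 at 48.5 CPM and Rfc5 at 194 CPM, and 31 were still lowest in cluster 1. For 7 members, Gins1, Orc2, Orc3, Orc4, Orc5, Pole3 and Pole4, that ratio was at most 1.2.

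**Figure D3:**
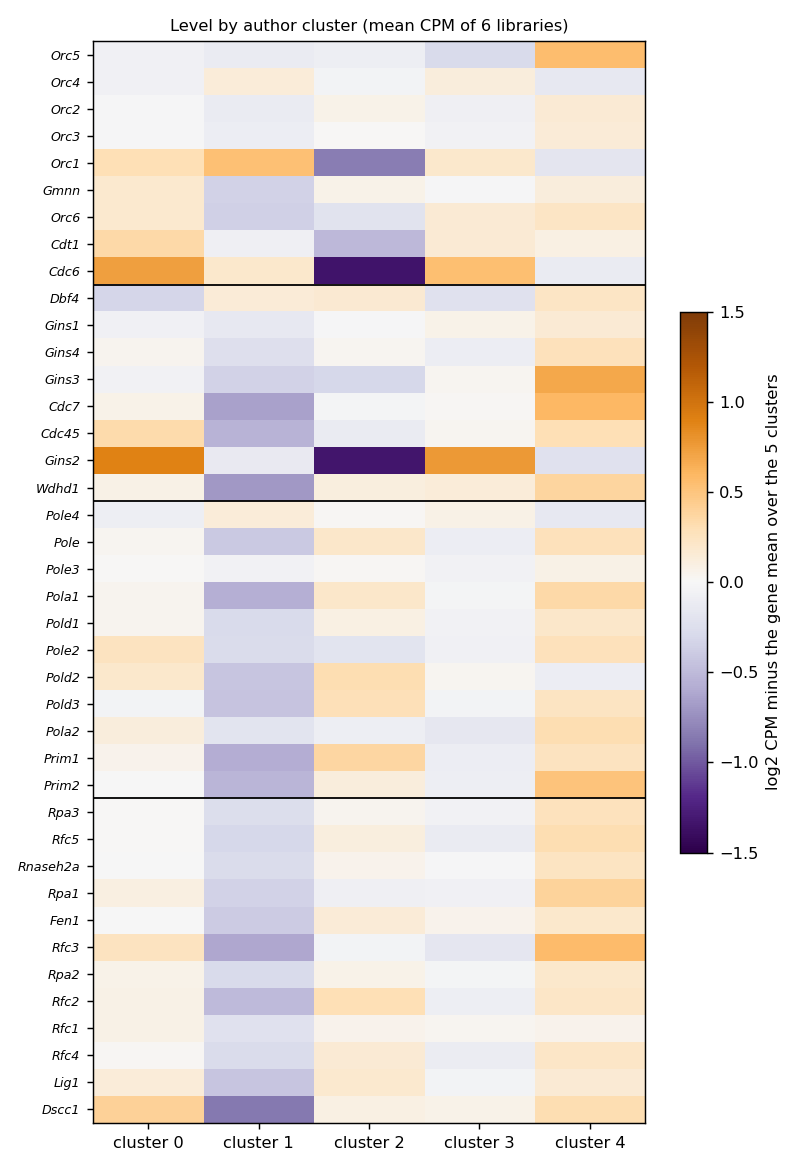
Level of the 40 members in the authors' 5 clusters as log2 CPM (mean of 6 samples) minus the gene's mean over the clusters, grouped by role with the licensing genes at the top; orange is above and purple below that mean. Cluster 1 is below the mean for most members. Cluster 2 is mixed: of clusters 0 to 3, Cdc6 (12.04 CPM), Gins2 (10.2 CPM), Orc1 (10.1 CPM) and Cdt1 (50.8 CPM) are lowest there. In the same 4 clusters 18 of the 40 members are highest in cluster 2.

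Within cluster 0, which held 39.8% to 44.8% of the cells of a sample, 31 of 40 members were positive between cKO and control, with a median of 0.11. In 10 members every cKO sample was above every control, against 4.88% of the 10091 genes tested, and in 1, Rpa3, every cKO sample was below (4.79%). edgeR called 0 genes there (0%), with 198 higher and 194 lower at an unadjusted p under 0.05. At that p, 6 members were higher (1.96% of genes) and 0 lower (1.92%). Prim2 stood at 26.4, 30.4 and 24.9 CPM in controls and at 43.5, 37.7 and 41.2 CPM in cKO samples of cluster 0, a log2 fold change of 0.59 ± 0.12. All cKO samples lay well above the controls, and without a filter on low counts this was the one call of a member in any cluster (adjusted p = 0.0254 by edgeR, against 0.9995 with the filter). Prim1 stood at 120, 118 and 119 CPM in controls and at 151, 148 and 150 CPM in cKO samples (0.33 ± 0.08). Each group of Prim1 was narrow, and the groups lay apart. Cdc45 stood at 102, 88.9 and 88.6 CPM in controls and at 115, 116 and 115 CPM in cKO samples (0.31 ± 0.09).

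Within cluster 1, with the high mitotic transcripts, 35 of 40 members were positive, with a median of 0.14, including all 9 licensing genes and all 8 helicase activators. In 12 members every cKO sample was above every control, against 4.65% of the 9889 genes tested, and in 2, Pole4 and Rpa3, every cKO sample was below (4.59%). edgeR called 0 genes (0%), with 151 higher and 182 lower at an unadjusted p under 0.05. At that p, 9 members were higher (1.53% of genes) and 0 lower (1.84%). Gins2 stood at 15.9, 20.7 and 19.2 CPM in controls and at 29.4, 27.7 and 27.4 CPM in cKO samples (0.60 ± 0.15). Cdc6 stood at 24.1, 26.7 and 34.5 CPM in controls and at 41.0, 41.6 and 43.0 CPM in cKO samples (0.54 ± 0.14). For both genes the cKO samples were close together and above control 2 and control 3, the highest controls of Gins2 and Cdc6. Wdhd1 stood at 26.8, 37.2 and 27.4 CPM in controls and at 37.5, 41.8 and 44.7 CPM in cKO samples (0.46 ± 0.15). Cdt1 stood at 46.7, 61.5 and 71.5 CPM in controls and at 78.2, 73.4 and 80.4 CPM in cKO samples (0.36 ± 0.14), and Orc1 24.4, 22.5 and 22.5 CPM against 34.8, 27.0 and 26.3 CPM (0.33 ± 0.15). The licensing genes of cluster 1 summed to 592, 621 and 682 CPM in controls and to 724, 728 and 731 CPM in cKO samples. The groups did not overlap there, nor in cluster 3, where the sums were 750, 749 and 761 CPM in controls and 890, 797 and 904 CPM in cKO, and they overlapped in clusters 0, 2 and 4. The mitotic list of cluster 1 was also higher in every cKO sample, at 5434, 5502 and 5353 CPM in controls and at 5537, 5685 and 5532 CPM in cKO samples, and its part in these values was not tested.

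The difference between these clusters was tested itself, in 1 fit of both with each sample as its own level. It called 2 of 10413 genes (0.0192%) and 0 members. The difference was positive for 20 of the 40 members, with a median of 0.0028. At an unadjusted p under 0.05 were 7 members, against 5.03% of genes, and 6 of the 7 were larger in cluster 1. The log2 fold change of Cdc6 was larger by 0.45 ± 0.13 in cluster 1 than in cluster 0 (edgeR unadjusted p = 0.000663, adjusted p = 0.588). Gins2 was larger there by 0.41 ± 0.15, Wdhd1 by 0.29 ± 0.12, Orc4 by 0.23 ± 0.10, Cdt1 by 0.22 ± 0.10 and Gmnn by 0.11 ± 0.05. Prim2 had the opposite sign, at -0.33 ± 0.15. Adjusted over all genes, none of these differences between the clusters passed the test.

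In cluster 2, 16 of 40 members were positive, with a median of -0.03. The summed level of the members stood at 4527 ± 109 CPM in controls and at 4531 ± 203 CPM in cKO samples (mean ± SD of 3 samples). In 2 members, the primase genes Prim1 and Prim2, every cKO sample was above every control, against 4.47% of the 7895 genes tested, and in 0 members every cKO sample was below (4.86%). Prim2 stood at 30.7, 35.1 and 31.1 CPM in controls and at 37.8, 43.8 and 44.4 CPM in cKO samples (0.40 ± 0.17). Prim1 stood at 167, 157 and 144 CPM in controls and at 169, 184 and 182 CPM in cKO samples (0.20 ± 0.11). The count of 2 members, 5% of the 40, was near the share over all genes, and the gap of Prim1 was small. Both primase genes also had all cKO samples higher in cluster 0. In cluster 1 the groups of Prim1 overlapped, with control 3 at 84.4 CPM and cKO 1 at 82.6 CPM. Cdc6, Gins2 and Orc1 rested on as few as 8, 6 and 8 UMIs in a sample of this cluster. edgeR called 0 genes (0%), with 149 higher and 170 lower at an unadjusted p under 0.05. At that p, 1 members were higher (1.89% of genes) and 0 lower (2.15%). In a fit chosen after seeing these values, the log2 fold change was smaller in cluster 2 than in cluster 0 for 33 of 40 members and smaller than in cluster 1 for 33 of 40, with 0 members called in either (0.021% and 0.0525% of genes called). The lowest adjusted p of a member was 0.978 against cluster 0 and 0.891 against cluster 1. The median difference was -0.12 for members and -0.0014 for all genes against cluster 0, and -0.12 and -0.0015 against cluster 1. At an unadjusted edgeR p under 0.05 were 2 members against cluster 0 (449 of 9539 genes). Against cluster 1 these were 6 members (490 of 9529 genes). The share of all genes with a smaller log2 fold change was not computed.

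In cluster 3, 38 members passed the low-count filter, without Gins3 and Pole2, and 28 of them were positive, with a median of 0.16. In 7 (Gmnn, Gins2, Wdhd1, Pold1, Rfc3, Rfc4 and Rpa2) every cKO sample was above every control, against 5.07% of the 5996 genes tested, and in 0 every cKO sample was below (4.49%). Gmnn stood at 288, 309 and 282 CPM in controls and at 365, 349 and 366 CPM in cKO samples (0.29 ± 0.11). Its cKO samples lay together above the controls. Control 3 gave only 25 cells with a median of 4654 UMIs to this cluster, so that its values rest on as few as 1 UMI. edgeR called 0 genes (0%), with 101 higher and 101 lower at an unadjusted p under 0.05. At that p, 1 members were higher (1.68% of genes) and 0 lower (1.68%).

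Over clusters 0 to 3, 19 members had every cKO sample above every control in at least 1 cluster, against 13.4% of the 10258 genes tested in any of them, and 7 had it in both clusters 0 and 1, against 0.781% of 9725 genes. Cluster 1, where the members were low, held 38.1% ± 0.389 of the cells of controls and 34.5% ± 1.52 of those of cKO samples (SD over 3 samples; exact two-sided permutation p = 0.1, the smallest possible, adjusted 0.6 over 6 measures). The part of this shift in the sums over all cells was not tested. The members' sum in cKO samples was 1.08 times that of controls in all cells, 1.08 times in cluster 0, 1.08 times in cluster 1, 1.001 times in cluster 2, 1.10 times in cluster 3 and 1.03 times in cluster 4.

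**Figure D4:**
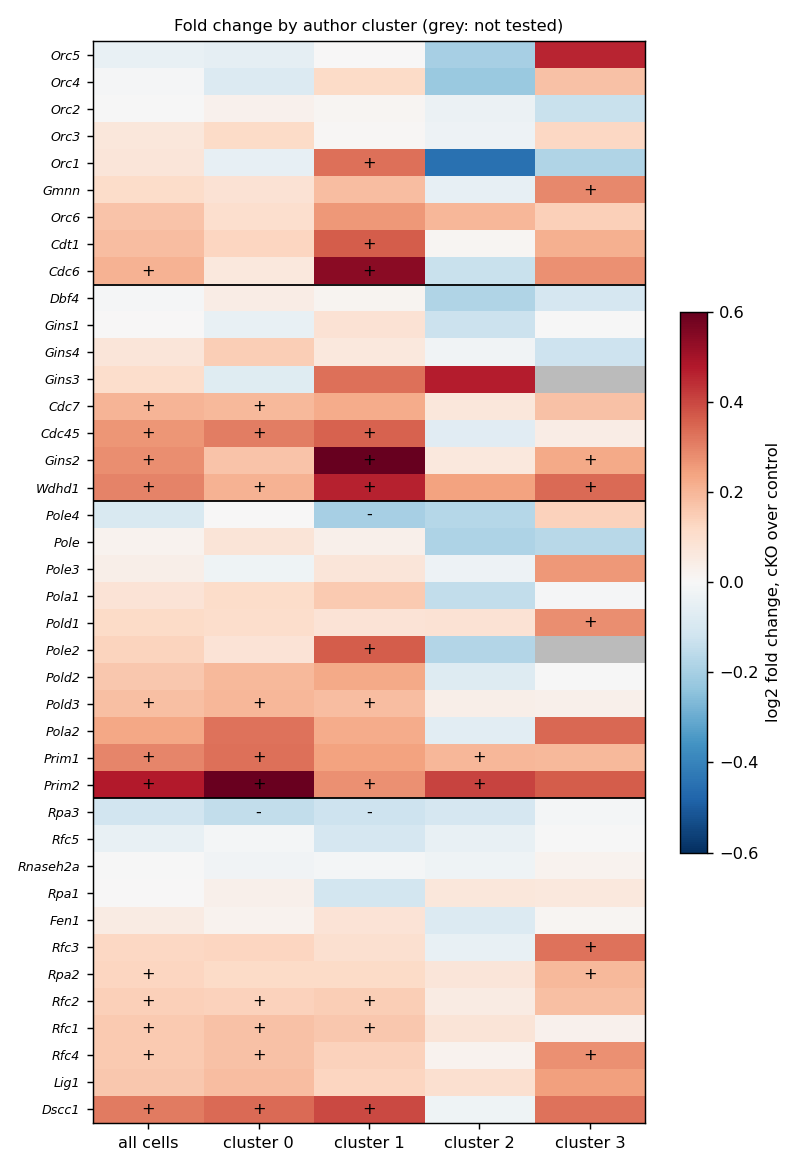
Log2 fold change of cKO over control for the 40 members in all cells and in clusters 0 to 3, from red (higher in cKO) to blue; + marks members with every cKO sample above every control, - those with every cKO sample below, and grey was not tested. Clusters 0 and 1 are mostly red (31 and 35 of 40 positive), cluster 2 is mixed (16 of 40), and Cdc6 and Gins2 are deepest in cluster 1 while Prim1 and Prim2 are deepest in cluster 0 among the clusters.

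A few members varied between the libraries of a group far more than the rest. Pola2, the accessory subunit of polymerase alpha, stood at 52.0, 55.8 and 127 CPM in controls and at 85.8, 49.3 and 142 CPM in cKO samples. Control 3 and cKO 3 were high in both groups and cKO 2 was low, so the log2 fold change was 0.23 ± 0.58, with a 95% interval of the fold from 0.403 to 3.42. The SD of Pola2 within groups was 0.74 on the log2 CPM scale, above that of 99.2% of the 4938 genes at 20 CPM or more, whose median was 0.11. In each of the 5 clusters control 3 was the highest control and cKO 3 the highest cKO sample for Pola2. Rfc3 followed with an SD of 0.25, Pola1 with 0.23 and Lig1, the ligase that seals lagging-strand nicks, with 0.22. Rfc3 stood at 90.6, 90.8 and 131 CPM in controls and at 109, 104 and 129 CPM in cKO samples. Lig1 stood at 261, 248 and 314 CPM in controls and at 277, 271 and 374 CPM in cKO samples. In these genes too, replicate 3 was the highest of its group. Over the 40 members the median SD was 0.09, and in 15 members control 3 was the highest control and cKO 3 the highest cKO sample. What the third libraries share beyond their label was not tested, and the strain label is a mixed one for all 6 samples.

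**Figure D5:**
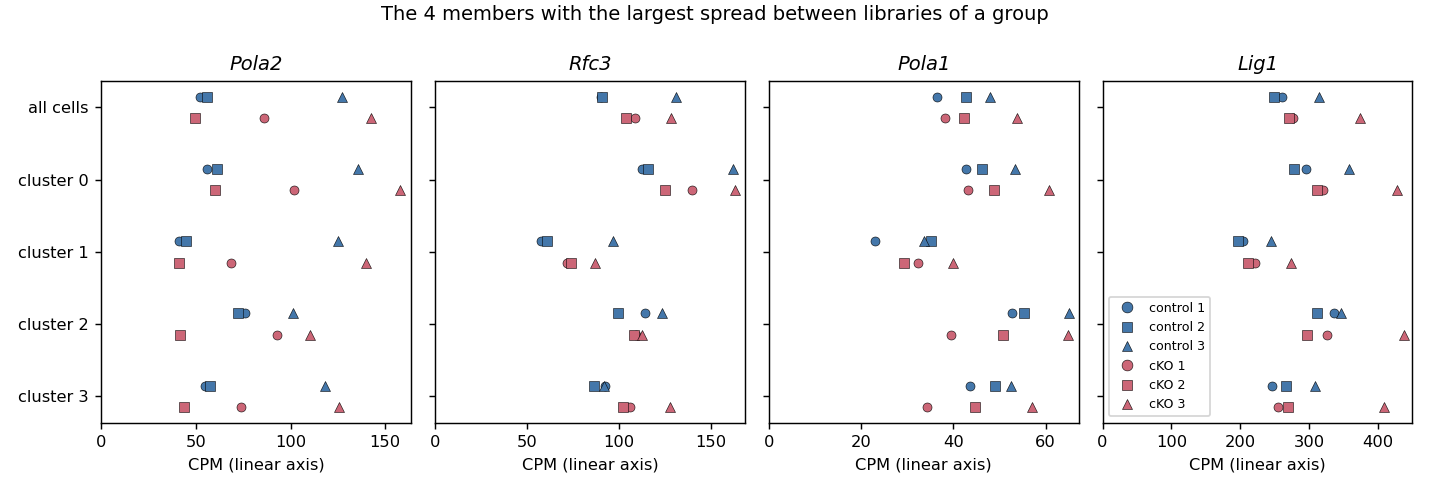
CPM per sample on linear axes, in all cells and in clusters 0 to 3, for Pola2, Rfc3, Pola1 and Lig1, the 4 members with the largest spread within groups; blue is control, red is cKO, and triangles are replicate 3. The triangles of Pola2 (127 and 142 CPM in all cells) lie right of the other samples in all cells.

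Of the 13 members with every cKO sample higher in all cells, 9 had an entry in the promoter table, and 2 of these 9, Cdc6 and Pold3, held an E2F word, against 10 of the 23 other members with an entry. The word of Cdc6 lay at -138 and that of Pold3 at 17 from the transcription start in the promoter table, as the capitals above show. The annotation used for gene positions starts Cdc6 at 98907801, before this whole window, so the place of its word depends on the annotation. Prim1 and Cdc45 held none of the 4 words in this window, and Orc1 and Rfc3, with groups that overlapped, held 1 and 2. Prim2, Gins2, Rfc2 and Dscc1, also among the 13, had no entry, and only exact matches to the 4 words were counted. Whether the words bear on the difference between the groups was not tested.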

How the data were processed

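Whole-number UMI counts per gene and cell barcode were deposited by the authors for 27998 genes and 5160 barcodes, and a further deposited file assigned barcodes to samples and to 5 clusters of the authors. Per the submitters' processing notes, Cell Ranger, Seurat 3.0 and the build mm10 were used; no source used here names the annotation release. Counts carry no normalization by the authors that the values show.

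Barcodes with fewer than 500 genes or 10% or more mitochondrial UMIs were removed, which kept 5154 cells. Scrublet, run per sample in scanpy 1.11.5, called 139 doublets (2.70%), which were kept and removed in an alternative. Counts were summed per sample, over all cells and within each cluster with at least 20 cells in every sample, which left cluster 4 with values only. The sums were tested with edgeR 4.0.16 (R 4.3.3) by its two-sided quasi-likelihood test (filterByExpr, TMM, robust dispersion), with Benjamini-Hochberg adjustment over all genes tested and a threshold of 0.05. Depth per library was 7598511 to 17323152 UMIs. Single values per sample were compared by exact permutation over the 20 labelings. Standard errors of log2 fold changes (cKO over control) were derived from the edgeR test, as the absolute log2 fold change over the square root of its F statistic. Intervals are at the 0.95 level and use these errors with a t quantile. Gene positions are from a GRCm38 annotation, and promoter windows from RefSeq.

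Members named with values were those with groups that did not overlap in all cells, the 3 largest and 3 smallest log2 fold changes, and the member with the highest mean CPM in each role. Others named (Cdt1, Orc6, flat members, those of large spread and those of single clusters) were chosen after their values were seen. The members and lists were chosen with earlier results of these data known. Alternatives were RLE factors, library size alone, DESeq2 1.42.0, no low-count filter, all barcodes, no doublets, equal cells (430 per sample), a replicate block and leaving out each library. Correlations between samples of the same replicate number were mixed in sign and left pairing unsettled. The main comparisons carry no block.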

Additional observations from a re-analysis of the deposited data

How the results depend on the processing

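Of 306 recomputed values, 270 kept their direction, side of the threshold and size. In all cells DESeq2 called 3 genes and edgeR 6 without the low-count filter, 2 with replicates 1 and 2 alone (chosen after seeing the data) and 0 to 4 with 1 library left out (4 without control 3), none of them a member. The count of 13 members with every cKO sample higher was 14 to 18 with 1 library left out and 12 to 19 otherwise, and the members' median 0.08 to 0.14. With fewer libraries the groups of any gene lie apart more easily. The share over all genes is not given for these settings. Larger counts of members higher, here and in the clusters below, are therefore not a stronger result. Pole3 turned to -0.0212 without control 2. In cluster 0 no filter gave 15 called genes with 1 member (Prim2), and replicates 1 and 2 alone 3 genes and 18 members with every cKO sample higher; with 1 library left out 0 to 2 genes were called, and the median was 0.0457 (without cKO 3) to 0.12. In cluster 1 no filter gave 8 called genes, replicates 1 and 2 alone 4 genes and 24 members higher; leaving out gave 0 to 2 genes, 13 to 19 members higher and medians of 0.12 to 0.22 (without control 3). In cluster 2 no filter gave 3 genes and replicates 1 and 2 alone 3; leaving out gave 0 to 2 genes, 2 to 5 members higher (5 without control 1) and medians of -0.0717 to -0.0011. In cluster 3 no filter gave 17 genes, the replicate block 1, replicates 1 and 2 alone 3 with a median of 0.0509; leaving out gave 0 to 3 genes, 7 to 12 members higher and medians of 0.068 (without cKO 3) to 0.17. The difference between clusters 0 and 1 gave 4 genes without the filter and 1 to 6 with 1 library left out. The cause was not tested. With the replicate block, all cells had 0 genes called and 505 at an unadjusted p under 0.05, against 405 without it. Same-numbered samples had correlations of -0.13, 0.23 and 0.20, and those of different number ran from -0.30 to 0.16. A factor shared by replicate number is thus not settled, and the numbers were not taken as pairs in the main comparisons. Adjusted p of Prim2 ran from 0.365 to 0.99996 over 14 alternatives. Members of few UMIs (Gins3, Pole2, Orc5) and Pola2 with its spread are the least precise.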

Other observations

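Cluster 4, with 10 to 27 cells per sample, was too small for a test. Its members summed to 5101, 4727 and 4991 CPM in controls and to 4985, 5093 and 5141 CPM in cKO samples, and the groups overlapped. The helicase activators there summed to 657, 501 and 547 CPM in controls and 521, 630 and 633 CPM in cKO samples. Pola2 stood at 63.4, 85.9 and 178 CPM in controls and 117, 55.3 and 155 CPM in cKO samples of cluster 4, with control 3 and cKO 3 again the highest of their groups.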
